A study of Homo sapiens with 4 samples.

Results

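Genes in the cell nucleus encode most subunits of the oxidative phosphorylation machinery, and their chromatin was examined in MCF10A, a human breast epithelial line that grows without limit, forms no tumours and has basal features. The members are the protein-coding genes of complexes I to V whose symbols begin with NDUFA, NDUFB, NDUFC, NDUFS or NDUFV and a digit, with UQCR, with COX and a digit of 4 to 8 or with ATP5, and the genes SDHA to SDHD. The rule gave 85 genes of the 19974 protein-coding genes on chromosomes 1 to 22 and X, after 2 read-through records with a hyphen were left out. NDUFA4 and NDUFA4L2 are named COXFA4 and COXFA4L2 in the annotation used, so the rule does not take them, and their values are given apart. Of the 85 genes, 77 encode subunits or regulators used in cells in general, 6 encode tissue-specific isoforms of cytochrome c oxidase subunits, and 2, UQCRHL and ATP5MGL, are near copies of other members.

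Chromatin immunoprecipitation followed by sequencing (ChIP-seq) gave 1 peak list each for trimethylated lysine 4 of histone H3 (H3K4me3), dimethylated lysine 79 (H3K79me2) and trimethylated lysine 27 (H3K27me3). A library of input DNA completes the 4 libraries and has no peak list analysed here. All cells were grown in mammary epithelial medium with cholera toxin at 100 ng/ml, and the labels name no other treatment or genotype. With 1 library per mark there is no replicate check, values carry no error estimate, no test between groups of genes was possible and read depth is unknown from the lists. A peak in such a bulk sample does not tell a mark in every cell from a stronger mark in some cells.

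Complex I (NADH dehydrogenase), complex II (succinate dehydrogenase), complex III (cytochrome bc1) and complex IV (cytochrome c oxidase) pass electrons to oxygen in the inner mitochondrial membrane, and complex V (ATP synthase) uses the proton gradient that I, III and IV build. Apart from complex II, each complex joins subunits from the nucleus with subunits from mitochondrial DNA. H3K4me3 marks active and poised start sites, H3K79me2 is laid down by DOT1L over the first part of transcribed genes, and H3K27me3 is the mark of Polycomb repression.

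The cell type was checked by its markers. Of 9 basal markers, 8 had H3K4me3 and 8 had H3K79me2 at an end of the gene record, where 67.9% and 50.9% of all protein-coding genes had these marks, and TP63, the exception for both, had an H3K4me3 peak of 9.53-fold inside its record. Of 5 luminal markers, 2 had H3K4me3 and 1 had H3K79me2, smaller shares than those of all genes. FOXA1 had both, with 21.9-fold H3K4me3 over 100% of an end window and 2.39-fold H3K79me2. ESR1 had the other H3K4me3 call, just above the limit at 25.2% of an end window and 1.84-fold. None of 4 fibroblast, 3 immune, 6 striated muscle and 5 testis markers had a call for either active mark.

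The general subunit genes carried both active marks, while most tissue-specific isoform genes carried neither. A call for H3K4me3 or H3K27me3 needed peaks over 25% or more of the bases that lie up to 1000 bp to each side of an end of the gene record. A call for H3K79me2 needed the same share of the first or last 5000 bp of the record, or of the whole record where it is shorter. H3K4me3 was called at 72 of the 77 general genes (93.5%), at 2 of the 6 tissue-specific genes and at 74 of all 85 members (87.1%), against 67.9% of all protein-coding genes. H3K79me2 was called at 75 general genes (97.4%), at 1 tissue-specific gene and at 78 members (91.8%), against 50.9% of all genes. H3K27me3 was called at 1 member, against 9.1% of all genes. H3K4me3 together with H3K79me2 and without H3K27me3 was found at 72 members (84.7%), against 48.9% of all genes.

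Counts under other peak thresholds and windows are given with the share of all genes under the same setting. With q of 0.05 or below, H3K4me3 stood at 73 members (66.3% of all genes), H3K79me2 at 75 (43.3%) and H3K27me3 at 0 (5.52%). With −log10 q of 5 or more, H3K4me3 stood at 73 (63.7%), H3K79me2 at 31 (12.6%) and H3K27me3 at 0 (1.21%), and with 5-fold or more at 73 (62.8%), 10 (3.56%) and 0 (1.69%), in the same order of marks. The H3K4me3 count thus moved by 1 gene under these thresholds, that of H3K79me2 fell most under the last 2, and the 1 H3K27me3 call was lost under each.

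A window with 1 bp or more covered gave H3K4me3 at 76 members (71.5%), H3K79me2 at 81 (60%) and H3K27me3 at 12 (24.7%). A covered share of 50% or more gave 73 (62.4%), 77 (45.3%) and 0 (4.28%), in the same order of marks. The smaller windows gave 73 (67.6%), 77 (51.8%) and 0 (9.65%), and the larger windows 74 (65.8%), 80 (49.2%) and 0 (8.28%).

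The members are short, with a median record of 8922 bp against 24170 bp for all genes, so both shares were also set beside genes of like length. Among the 4642 genes with records from 5247 to 16254 bp, the quartiles of the members, H3K4me3 was called at 63.3%, H3K79me2 at 47% and H3K27me3 at 9.24%. These shares lay below those of all genes for both active marks. The gap to the members was thus not smaller among genes of like length.

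**Figure D1:**
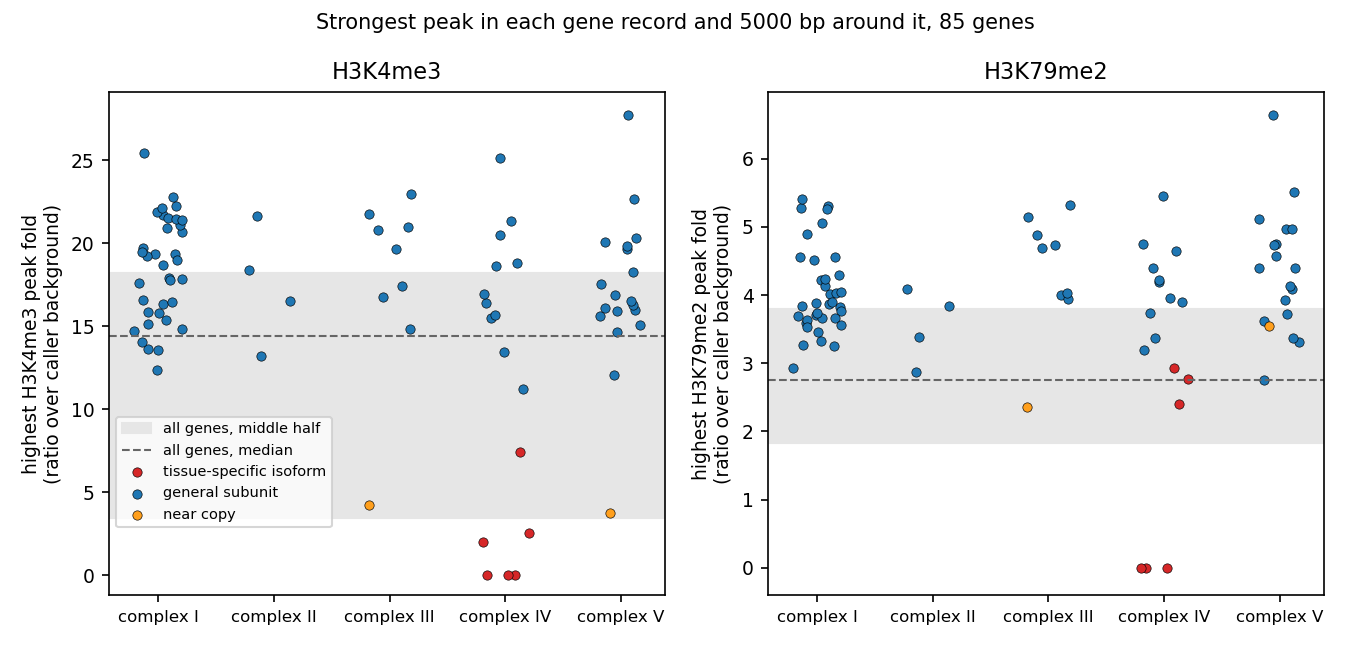
Fold of the strongest H3K4me3 peak (left panel) and H3K79me2 peak (right panel) in the record and 5000 bp around it, for each of the 85 genes by complex. Each point is 1 gene, red for tissue-specific isoforms, blue for general subunits and orange for near copies. The grey band is the interquartile range of all genes and the dashed line their median. The red points of complex IV lie at or below 7.43-fold for H3K4me3, and all blue points lie at 11.25-fold or above.

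The strongest H3K4me3 peak in the record and 5000 bp around it had a median of 17.9-fold over the caller's background at the general genes, from 11.25-fold at COX7B to 27.7-fold at ATP5ME, against 14.4-fold over all genes. The strongest H3K79me2 peak had a median of 4.03-fold, from 2.75-fold at ATP5PD to 6.65-fold in the window of ATP5F1E, against 2.76-fold over all genes. Of the 77 general genes, 69 were above the median of all genes for H3K4me3 and 76 for H3K79me2. Every general gene had at least 1 peak of each active mark in this window. The folds are the authors' values per peak and rank genes within 1 mark only, since the 3 lists have different scales.

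Starts could be placed for 69 of the 85 genes, 65 of them general, from RefSeq promoter records of the same build. At these starts H3K27me3 was called at 0 members, against 7.46% of genes with a start. H3K4me3 was called at these starts at 65 of 65 general genes and H3K79me2 at 65 of 65, against 70.7% and 54.9% of the 15812 protein-coding genes with a start. All 3 members without H3K4me3 at their start, COX6A2, COX7B2 and COX8C, were tissue-specific isoform genes. Over 200-bp bins the general genes reached 96.9% of bases in H3K4me3 peaks just downstream of the start, against 67.9% for all genes with a start. H3K79me2 reached 96.9% of bases at the bin that begins 400 bp downstream and 70.8% at the bin that begins 4800 bp downstream, against 45.5% and 40.2% for all genes in the same bins. The highest H3K27me3 bin held 4.32% of bases at the general genes, against 5.09% in the highest bin of all genes.

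**Figure D2:**
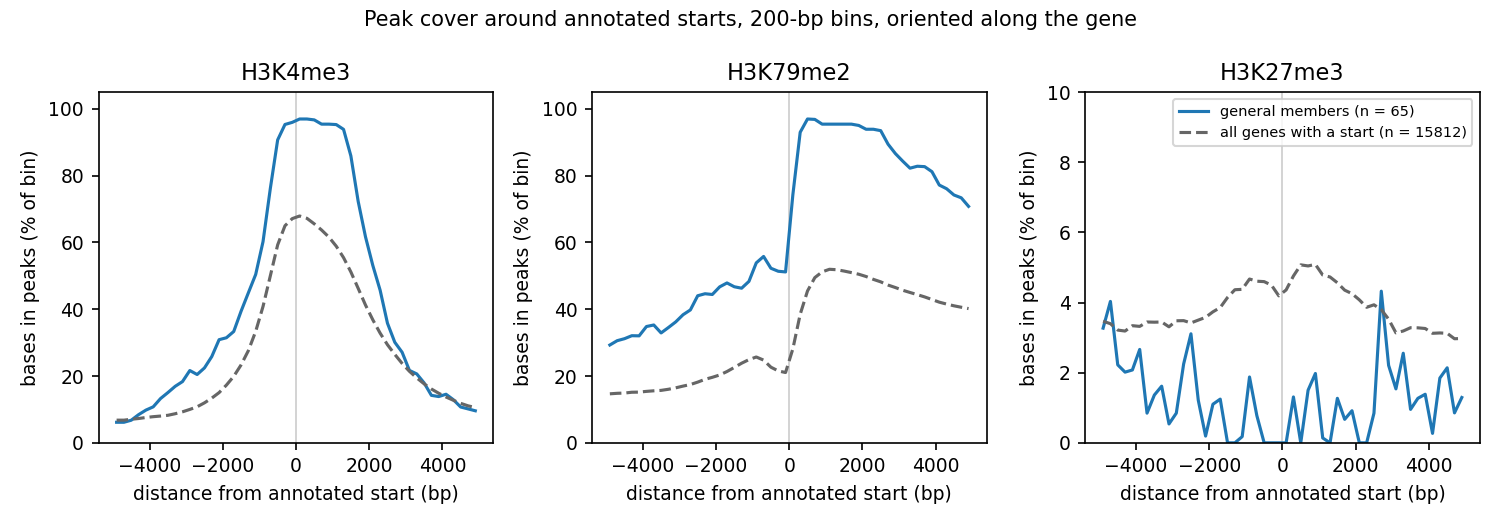
Percent of bases in peaks in 200-bp bins from 5000 bp upstream to 5000 bp downstream of 1 annotated start per gene, oriented along the gene. The solid blue line is the 65 general members with a start, the dashed grey line all 15812 genes with a start, and the H3K27me3 panel has its own, shorter axis. H3K4me3 stands on both sides of the start, and H3K79me2 is higher downstream of the start, where it reaches 96.9%.

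NDUFA5, COX7A2, COX7A2L and ATP5MC2 were among the general genes without an H3K4me3 call at an end of the record. Each of these 4 genes had a strong H3K4me3 peak inside its record, at 14.7-fold in NDUFA5, 13.5-fold in COX7A2, 18.8-fold in COX7A2L and 15.1-fold in ATP5MC2. In COX7A2, COX7A2L and NDUFA5 the end of the record belongs to an annotated start upstream of the marked one, while all 3 annotated starts of ATP5MC2, a subunit c gene of complex V, lay under the mark at 76.3% to 99.8% of their windows. COX7A2, which encodes the general form of subunit VIIa, has 2 annotated starts. The inner start had H3K4me3 over 97.7% of its window and H3K79me2 over 99.8%, and the outer start had 0% of both.

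COX7A2L, a relative of COX7A2 whose product takes part in the assembly of respiratory supercomplexes, showed the same arrangement. Its inner start had H3K4me3 over 100% of the window at 18.8-fold and its outer start over 0%. NDUFA5, an accessory subunit gene of complex I, had H3K4me3 over 100% of the window at the inner of its 3 starts and over 0% at the other two. The promoter windows of the marked starts held 22, 19 and 15 CpG dinucleotides in 300 bases, in the order COX7A2, COX7A2L and NDUFA5, and those of the unmarked starts 0, 6 and 3 (both outer NDUFA5 windows). In all, 72 of 72 member windows with over 10 CpG had H3K4me3 and 3 of 10 with up to 10 CpG, where 87.3% and 26.6% of all promoter windows of these classes had the mark. NDUFA5 was also without an H3K79me2 call at an end of the record, with 21.0% of the inward window covered.

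The tissue-specific genes were set beside the general gene of the same subunit. COX4I2 is known from lung, COX6A2 and COX7A1 from heart and skeletal muscle, and COX6B2, COX7B2 and COX8C from testis. In the record and 5000 bp around it, the 6 tissue-specific genes had 0 to 4216 bp in H3K4me3 peaks with a median of 218.5 bp, against 3262 to 8492 bp and a median of 4798 bp at their 6 partners. For H3K79me2 they had 0 to 3492 bp with a median of 75 bp, against 6723 to 10502 bp and a median of 8545.5 bp. The ranges overlapped for H3K4me3, where COX6B2 exceeded COX7A2 and COX8A, and did not overlap for H3K79me2.

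**Figure D3:**
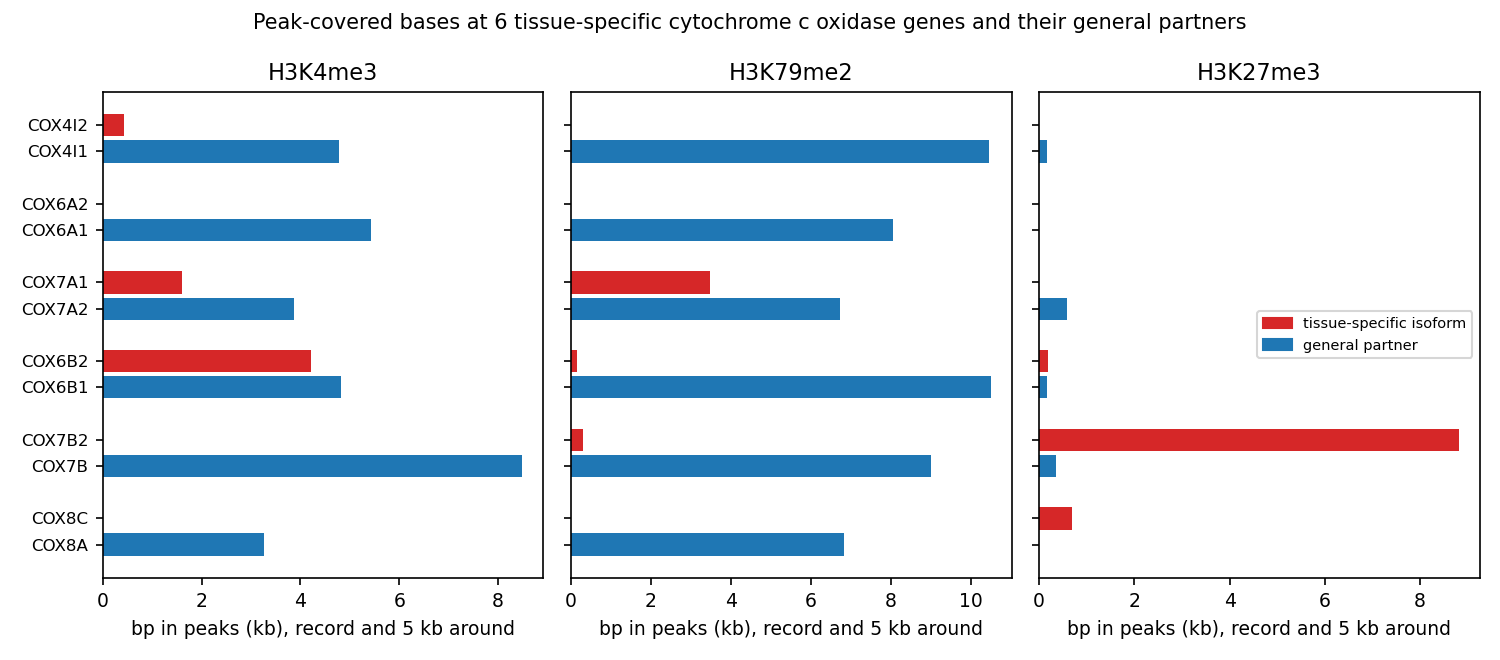
Bases in peaks (kb) within the record and 5000 bp around it for 6 pairs of genes, with the tissue-specific isoform in red above its general partner in blue, and 1 panel per mark. Blue bars are present for both active marks in every pair, COX6A2 has no bar in any panel, and COX7B2 has the longest H3K27me3 bar at 8814 bp.

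COX6A2, the muscle form of subunit VIa on chromosome 16 (31427731 to 31428360), had 0 peaks of any of the 3 marks in its window. Its partner COX6A1 on chromosome 12 (120438113 to 120440730) had H3K4me3 at 13.8-fold at its start and H3K79me2 at 4.19-fold. COX4I2 on chromosome 20 (31637912 to 31645006) had 1 H3K4me3 peak of 437 bp and 2.01-fold with a −log10 q of 0.115, which a q of 0.05 would not keep, and 0 peaks of the other marks. Its partner COX4I1 on chromosome 16 (85799695 to 85807068) had 25.1-fold H3K4me3 and 4.22-fold H3K79me2. The COX4 products are the regulatory subunit IV of the enzyme.

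COX6B2, the testis form of subunit VIb on chromosome 19 (55349704 to 55354719), was the tissue-specific gene with H3K4me3 that met every peak threshold tried. It had 7.43-fold H3K4me3 over 90.3% of the window at its start and 3 H3K4me3 peaks in all, and H3K79me2 was a single peak of 150 bp at 2.41-fold. An end of GARIN5B lay 189 bp from an end of the COX6B2 record. Its partner COX6B1 on the same chromosome (35648323 to 35658782) had 21.4-fold H3K4me3 and 1 H3K79me2 peak at 3.96-fold over 10502 bp of the window. COX6B2 was the 1 member with H3K4me3 as its only called mark, a pattern found at 14.6% of all genes.

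COX7A1, the muscle form of subunit VIIa on chromosome 19 (36150922 to 36152447), was called for both active marks by weak peaks. Its H3K4me3 peak of 1600 bp and 2.55-fold covered 29.8% of an end window and 0% of the record, with a −log10 q of 0.958. Its H3K79me2 peaks reached 2.77-fold and covered 47.7% of the record. Both calls were lost at q of 0.05 or below, and an end of CAPNS1 lay 569 bp away. COX7A2, its partner, had 13.5-fold H3K4me3 and 5.45-fold H3K79me2.

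COX8C, the testis form of subunit VIII on chromosome 14 (93347182 to 93348356), lies inside the record of UNC79 and had 0 peaks of both active marks and 3 short H3K27me3 peaks of up to 3.58-fold over 6.17% of its window. Its partner COX8A had H3K4me3 at 15.5-fold over 100% of its record of 1924 bp. COX7B2 on chromosome 4, with a record of 174419 bp, had 0 H3K4me3 peaks, 2 H3K79me2 peaks of up to 2.93-fold that covered 0.086% of the record, and 38 H3K27me3 peaks of up to 5.003-fold over 4.78% of the window. The median over all genes for this H3K27me3 share was 0.490%, and no window at an end or start of COX7B2 held H3K27me3. Its partner COX7B on chromosome X had 11.19-fold H3K4me3 at its start, with a neighbouring peak of 11.25-fold in the window, and 3.90-fold H3K79me2.

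The promoters of the 4 pairs with a RefSeq start for both genes are shown, since these pairs differ in their marks. The lines give the 250 bases before the RefSeq start in GRCh38.p14, 5′ to 3′ along the gene, at chr16:31428361-31428610 on the minus strand for COX6A2, chr12:120437863-120438112 on the plus strand for COX6A1, chr19:55354720-55354969 on the minus strand for COX6B2, chr19:35648073-35648322 on the plus strand for COX6B1, chr4:46909246-46909495 on the minus strand for COX7B2, chrX:77899218-77899467 on the plus strand for COX7B, chr14:93346932-93347181 on the plus strand for COX8C and chr11:63974370-63974619 on the plus strand for COX8A. Capitals mark letters of the motifs searched.
COX6A2: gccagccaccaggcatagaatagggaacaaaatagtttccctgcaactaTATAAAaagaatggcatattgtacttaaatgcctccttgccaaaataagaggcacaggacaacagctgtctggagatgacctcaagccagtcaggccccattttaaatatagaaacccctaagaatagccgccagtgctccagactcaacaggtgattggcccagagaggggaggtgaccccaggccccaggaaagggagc
COX6A1: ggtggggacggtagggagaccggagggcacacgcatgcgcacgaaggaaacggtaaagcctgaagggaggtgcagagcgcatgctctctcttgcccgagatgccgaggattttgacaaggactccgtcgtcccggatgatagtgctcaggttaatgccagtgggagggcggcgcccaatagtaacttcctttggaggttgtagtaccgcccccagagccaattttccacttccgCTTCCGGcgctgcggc
COX6B2: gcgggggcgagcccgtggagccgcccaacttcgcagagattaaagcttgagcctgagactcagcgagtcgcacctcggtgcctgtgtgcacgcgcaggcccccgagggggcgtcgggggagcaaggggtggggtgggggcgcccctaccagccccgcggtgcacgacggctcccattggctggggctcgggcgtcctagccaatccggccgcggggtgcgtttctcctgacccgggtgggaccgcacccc
COX6B1: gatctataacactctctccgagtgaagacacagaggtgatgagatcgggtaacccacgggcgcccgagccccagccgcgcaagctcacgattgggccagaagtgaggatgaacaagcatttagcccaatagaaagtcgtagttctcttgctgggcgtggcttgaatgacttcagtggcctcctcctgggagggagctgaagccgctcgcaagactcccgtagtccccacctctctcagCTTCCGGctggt
COX7B2: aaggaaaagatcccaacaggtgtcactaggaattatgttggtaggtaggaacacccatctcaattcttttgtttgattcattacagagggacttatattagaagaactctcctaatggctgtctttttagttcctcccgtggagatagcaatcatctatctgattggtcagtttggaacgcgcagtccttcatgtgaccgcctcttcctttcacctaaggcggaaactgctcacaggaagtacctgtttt
COX7B: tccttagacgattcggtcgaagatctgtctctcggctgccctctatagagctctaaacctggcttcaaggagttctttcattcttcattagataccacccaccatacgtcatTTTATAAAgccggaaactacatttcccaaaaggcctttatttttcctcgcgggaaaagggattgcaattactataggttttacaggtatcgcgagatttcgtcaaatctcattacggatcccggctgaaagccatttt
COX8C: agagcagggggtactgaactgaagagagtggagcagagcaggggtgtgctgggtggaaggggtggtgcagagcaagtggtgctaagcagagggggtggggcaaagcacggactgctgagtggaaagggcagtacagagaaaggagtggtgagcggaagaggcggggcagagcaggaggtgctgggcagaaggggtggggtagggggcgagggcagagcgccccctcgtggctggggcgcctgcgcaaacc
COX8A: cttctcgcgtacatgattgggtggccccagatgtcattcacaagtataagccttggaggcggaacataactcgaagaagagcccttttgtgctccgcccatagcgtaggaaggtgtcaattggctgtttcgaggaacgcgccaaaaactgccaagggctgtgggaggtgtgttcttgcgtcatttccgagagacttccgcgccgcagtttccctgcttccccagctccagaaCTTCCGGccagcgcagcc
The stretch of COX6A2, with no mark, held 1 CpG dinucleotide, and that of COX6A1 held 19. COX7B2 held 5, against 13 at COX7B, and COX8C held 8, against 16 at COX8A. COX6B2 held 26, against 14 at COX6B1, and its H3K4me3 was 7.43-fold, below the median of 14.4-fold over all genes. The letters CTTCCGG stood in capitals 16, 12 and 18 bases before the start in COX6A1, COX6B1 and COX8A, counted from the first letter, and in neither COX7B nor the 4 tissue-specific stretches. Of the other partners, COX4I1 held the ETS letters in its promoter window and COX7A2 did not. The capitals of COX6A2 are TATAAA, beginning 201 bases before its start, and those of COX7B are the overlapping letters TATAAA and TTTATA, its reverse complement, beginning 138 bases before its start.

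CCGGAAG and its reverse complement CTTCCGG are the core letters bound by ETS factors, among them GABP, which is known to act at many genes of oxidative phosphorylation. Searched on both strands from 250 bases before to 50 after each start, they stood in 21 of the 69 members with a start (30.4%), against 16.5% of all genes with a start and 21.3% of those with H3K4me3 at an end. Of the 82 member windows, 15 (18.3%) held them within 50 bases of the start, against 7.13% of all windows. The palindrome of the factor NRF1 stood in 4 members, NDUFB4, NDUFA8, ATP5F1C and SDHD (5.80%), against 1.99% of all genes with a start and 2.61% of those with H3K4me3. The YY1 motif with its flank stood in 4 members, SDHB, UQCRC1, NDUFS4 and NDUFA9 (5.80%), against 1.58% and 2.20% of the same gene sets. TATAAA stood in 7 members (10.1%), which is below the 12.4% of all genes with a start and above the 8.55% of those with H3K4me3. The ETS letters end and the YY1 letters begin with AAG, so that their matches can overlap. A match says only that the letters are there.

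In complex I, 34 of 36 genes had H3K4me3 and 34 had H3K79me2. The median strongest peak was 18.9-fold for H3K4me3 and 3.88-fold for H3K79me2. NDUFV3, a small subunit of the flavoprotein part, had the strongest H3K4me3 at 25.4-fold, followed by the accessory subunit gene NDUFA3 at 22.8-fold. NDUFA11 and NDUFB2, accessory subunit genes of the membrane arm, led in H3K79me2 at 5.41- and 5.30-fold. NDUFV2, a core subunit of the flavoprotein part, had the widest H3K4me3 peak among general genes, 9171 bp, followed by ATP5PB, subunit b of complex V, at 8745 bp, and NDUFA12 and NDUFB7 the narrowest, 1689 and 2048 bp. The narrow peaks stood at 21.5-fold at NDUFA12 and 19.5-fold at NDUFB7, and the wide peak of NDUFV2 at 13.8-fold.

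The 4 genes of complex II, which also serves the citric acid cycle and whose genes are tumour suppressors in paraganglioma, all had both active marks. SDHC, a membrane anchor, had 21.7-fold H3K4me3 and 2.87-fold H3K79me2. SDHA, the flavoprotein, had 18.4-fold H3K4me3 and 4.10-fold H3K79me2. SDHD, the other anchor, had 16.6-fold and 3.85-fold, and SDHB, the iron-sulfur protein, 13.2-fold and 3.39-fold, H3K4me3 first. The order of the 4 genes thus differed between the marks. The 250 bases before the starts of SDHB (chr1:17054033-17054282 on the minus strand) and SDHD (chr11:112086623-112086872 on the plus strand) are shown because SDHD was the 1 member with both the NRF1 and the ETS letters and SDHB the 1 with both the YY1 and the ETS letters.
SDHB: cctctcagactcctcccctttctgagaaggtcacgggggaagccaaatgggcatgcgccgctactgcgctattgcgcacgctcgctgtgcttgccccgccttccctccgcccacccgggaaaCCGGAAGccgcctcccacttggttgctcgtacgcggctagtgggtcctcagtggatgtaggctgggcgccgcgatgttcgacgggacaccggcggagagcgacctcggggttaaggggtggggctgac
SDHD: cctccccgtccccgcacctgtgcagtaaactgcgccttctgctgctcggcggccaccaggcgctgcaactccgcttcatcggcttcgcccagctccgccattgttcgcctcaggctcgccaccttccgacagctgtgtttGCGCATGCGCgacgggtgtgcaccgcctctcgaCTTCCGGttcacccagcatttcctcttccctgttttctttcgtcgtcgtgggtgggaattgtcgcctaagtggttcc
In SDHD the capitals are the NRF1 palindrome, beginning 110 bases before the start, and then CTTCCGG. In SDHB they are CCGGAAG, beginning 128 bases before the start, and its YY1 letters are not wholly within the stretch shown.

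In complex III, all 8 genes other than UQCRHL had both marks, with medians of 20.2-fold for H3K4me3 and 4.71-fold for H3K79me2. UQCR11, a small subunit, had H3K4me3 at 19.4-fold at its own end with a neighbouring peak of 22.97-fold in the window, and H3K79me2 at 5.32-fold. UQCRH, the hinge protein gene, had 21.75-fold H3K4me3 and 5.14-fold H3K79me2. Among the 11 general genes of complex IV the medians were 16.95-fold and 4.19-fold. COX4I1 at 25.1-fold and COX6B1 at 21.4-fold led in H3K4me3, and COX7A2 at 5.45-fold and COX6C, a small structural subunit, at 4.74-fold led in H3K79me2.

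In complex V, 17 of 19 genes had H3K4me3 and all 19 had H3K79me2, with medians over the 18 genes other than ATP5MGL of 16.7-fold and 4.397-fold. ATP5ME, subunit e of the membrane part, had the strongest H3K4me3 of all members at 27.7-fold. The 22.7-fold peak in the window of ATP5F1D lay outside its end windows, where 9.57-fold was the strongest. ATP5F1E, the epsilon subunit gene, had H3K79me2 of 4.24-fold at its own end and a peak of 6.65-fold nearby, and ATP5MF, subunit f, had 5.51-fold. ATP5IF1, the inhibitor of the ATP synthase, had 20.3-fold H3K4me3 over 100% of a window and 4.399-fold H3K79me2.

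The near copies differed from their sources. UQCRHL, an intronless copy of UQCRH on chromosome 1, had an H3K4me3 peak of 186 bp and 4.21-fold over 9.30% of an end window and an H3K79me2 peak of 572 bp and 2.37-fold, and both ended within 19 bp of the end of its 276-bp record. UQCRH had an H3K4me3 peak of 7551 bp and an H3K79me2 peak of 25671 bp. The placing of reads that match both genes was not given in the sources used here, so the values of UQCRHL are uncertain, and the H3K79me2 call was lost at q of 0.05 or below. ATP5MGL on chromosome 22 lies inside the record of CYB5R3, had no H3K4me3 in its end windows, and its H3K79me2 call came from a peak of 18213 bp that spans its record and runs 9953 bp past its end. Of the genes outside the rule, NDUFA4 had H3K4me3 over 100% of an end window and 4.57-fold H3K79me2, and its paralog NDUFA4L2, known to be induced by hypoxia, had 15.7-fold H3K4me3 at an end and no H3K79me2 over its inward windows.

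H3K79me2 covered most of the short genes and a smaller share of most long ones. Over the 65 general genes with a start, the H3K79me2 peak reached a median of 7157 bp downstream, from 1948 to 76075 bp, and the H3K4me3 peak 2227 bp, from 564 to 7994 bp, with H3K79me2 reaching farther in 65 of 65. At genes with several starts, H3K4me3 was taken at a start under its strongest peak and H3K79me2 at the start of farthest reach. These starts differ at ATP5F1A, the gene with 564 bp. In 20 of the 65 genes the H3K79me2 peak reached the far end of the record. The 38 general genes with records up to 10000 bp had a median of 94.9% of the record in H3K79me2 peaks, from 48.3% to 100%, where all genes of that length had a median of 0%. The 39 longer general genes had a median of 76.5%, against 18.2% of all such genes, and the 7 over 40000 bp had 27.6%, against 17.6%. Of these 7, NDUFS4, an accessory subunit gene of complex I with a record of 122700 bp, had 93.1% covered and a peak of 76042 bp, SDHC had 81.5% covered, and the lowest was NDUFA10 at 19.1%. The whole record lay in H3K79me2 peaks at 14 of the 85 members, against 2.15% of all genes. The longest peak, 78420 bp at NDUFC1, also spans NAA15, and in 31 of the 77 general genes the strongest H3K79me2 peak overlapped another protein-coding record too.

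**Figure D4:**
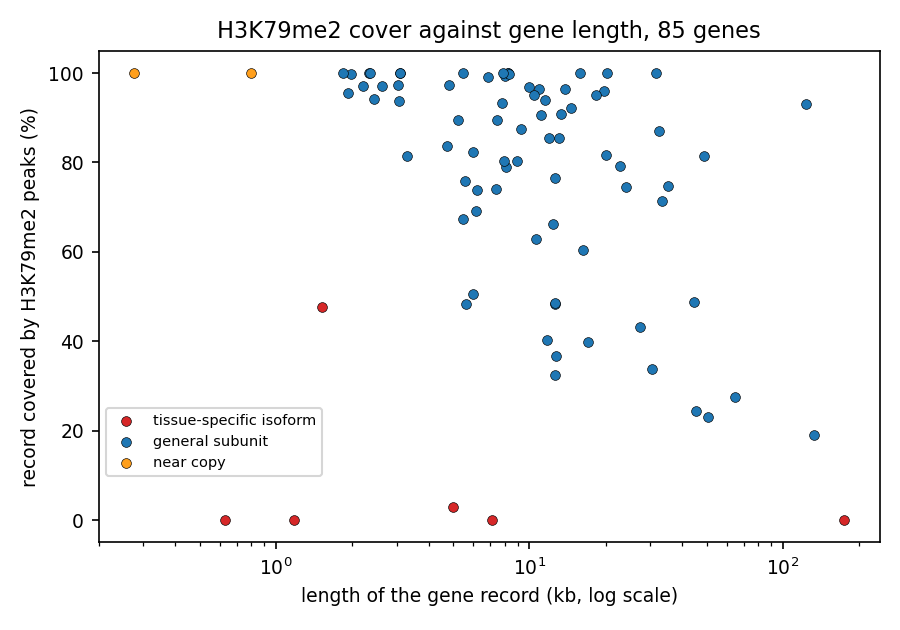
Percent of the gene record covered by H3K79me2 peaks (vertical axis) against record length in kb on a log axis, 1 point for each of the 85 genes. General subunits (blue) up to 10 kb have a median of 94.9%, most of those over 40 kb lie low apart from NDUFS4 at 93.1% and SDHC at 81.5%, and tissue-specific isoforms (red) lie near 0% apart from COX7A1 at 47.7%.

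Many members share their start region with a neighbour. Of the 69 members with a start, 23 (33.3%) had the start of another protein-coding gene within 1000 bp upstream on the opposite strand. This divergent arrangement was found at 12.3% of all genes with a start. All 23 members were general genes, as were 65 of the 69. It was also found at 16 of 40 assembly factor genes of the complexes with a start (40%). At ribosomal protein genes the share was 20.9%, and at proteasome genes 17.1%. The distance at the 23 members had a median of 167 bp, from 63 bp at UQCRQ with GDF9 to 677 bp at NDUFA13 with TSSK6. In 22 of the 23 pairs 1 H3K4me3 peak lay over both starts, the exception being the unmarked outer start of NDUFA5 with ASB15. In 16 pairs 1 H3K79me2 peak lay over both starts. In complex V 7 of 14 genes with a start were divergent, in complex IV 1 of 14, COX4I1 with EMC8. Only neighbours among the 15812 genes with a RefSeq start could be counted, so a divergent neighbour without one was not seen. An end of TIMM8B lay 117 bp from an end of SDHD, and one of HYCC2 330 bp from NDUFB3. No divergent start was found for SDHD or NDUFB3.

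The H3K4me3 peak reached a median of 2416 bp upstream of the start at the 23 divergent general genes, from 445 to 4140 bp. At the 42 with no divergent start found the median was 817.5 bp, from 69 to 4039 bp. For NDUFA5, among the 23, the reach of 1135 bp was taken at its marked inner start, while its divergent start is an outer one. Downstream the medians were 2178 and 2241.5 bp. The groups thus differed in median upstream and were close downstream, with overlapping ranges on both sides. The median of the strongest H3K4me3 peak was 18.3-fold at divergent genes and 17.9-fold at the others, and that of H3K79me2 4.05- and 3.98-fold.

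**Figure D5:**
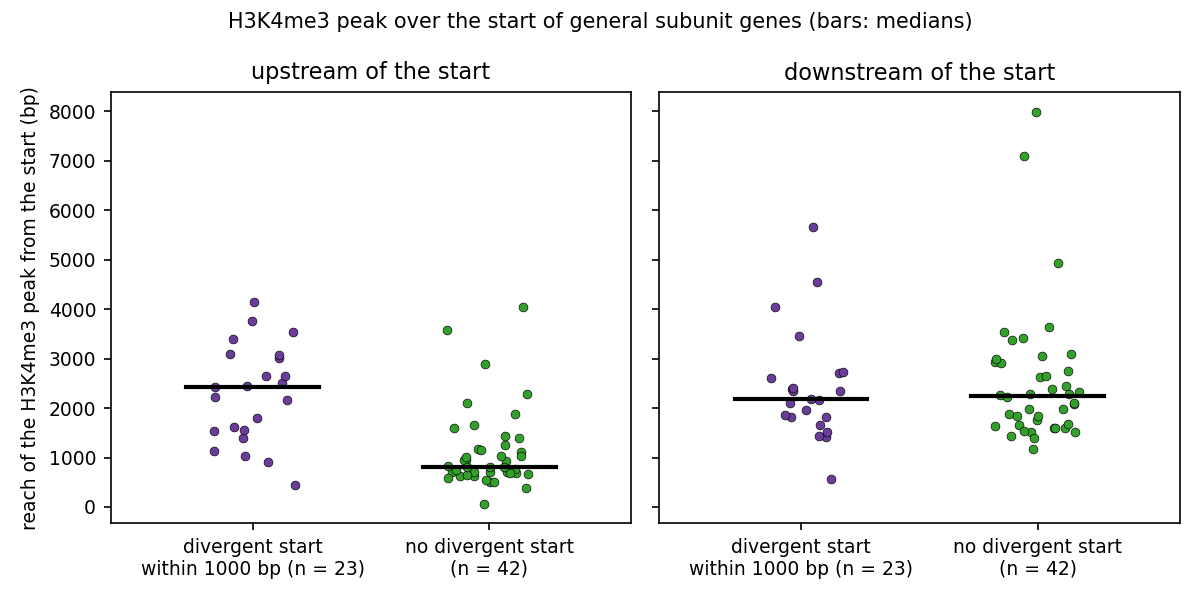
Reach of the H3K4me3 peak upstream (left panel) and downstream (right panel) of the annotated start, in bp, for general subunit genes. The groups are genes with a divergent start within 1000 bp (23 genes) and genes with none found among neighbours with a RefSeq start (42 genes). For NDUFA5, among the 23, the reach is that at its inner start, which is not the divergent one. Each point is 1 gene and the bars are medians. The medians upstream are 2416 and 817.5 bp, and those downstream are 2178 and 2241.5 bp.

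Among members with no record overlapping theirs, those closest to the end of another gene were NDUFB9 at 35 bp from TATDN1, NDUFA9 at 63 bp from AKAP3, UQCRH at 82 bp from LRRC41, NDUFB10 at 83 bp from RPS2 and NDUFB7 at 98 bp from TECR. In all, 39 of the 85 had another end within 1000 bp, and 19 overlapped another record. At such genes a peak cannot be assigned to 1 of the neighbours from these lists. COX7C, a small structural subunit gene of complex IV, lies 646921 bp from the nearest other end and had 18.6-fold H3K4me3 and 3.36-fold H3K79me2.

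H3K27me3 was sparse at the members. Of the 85 genes, 34 (40%) had any H3K27me3 peak in the record and 5000 bp around it, against 65.1% of all genes and 51.1% of genes of like length. These counts take peaks as deposited, with no limit on q. The 1 call was NDUFA10, the accessory subunit gene of complex I with the longest general record (132901 bp), where short peaks of up to 2.69-fold covered 28.04% of the window at the end away from its start, and it was lost at q of 0.05 or below. At its start NDUFA10 had 18.7-fold H3K4me3, 5.06-fold H3K79me2 and 0% H3K27me3. The highest covered shares of the window among general genes were 12.7% at NDUFA1, 12.5% at COX7C and 10.6% at NDUFB11.

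The other genes of the pathway were taken from a list of assembly factors, carriers, regulators and uncoupling proteins. All 46 assembly factor genes, whose products build the complexes without staying in them, had H3K4me3 and H3K79me2, against 67.9% and 50.9% of all genes, and 0 had H3K27me3. NDUFAF8 at 25.2-fold and SURF1, needed for complex IV, at 23.8-fold led in H3K4me3. The 3 genes listed as carriers, CYCS for cytochrome c, CYC1 for cytochrome c1 and NDUFAB1 for the acyl carrier protein, had both marks. The symbol rule does not take them, so the counts for the complexes leave them out. All 12 regulator genes had H3K4me3, led in the record and 5000 bp around it by PPARGC1B at 26.7-fold and YY1 at 22.4-fold. The YY1 peak lay outside the end window used for its call, where the strongest was 18.1-fold, below ESRRA at 20.3-fold. Of the 12 regulator genes, 11 had H3K79me2.

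PPARGC1A, the coactivator of mitochondrial biogenesis known from muscle, brown fat and liver, was the exception, with 14.4-fold H3K4me3 at an end, 0% H3K79me2 over its inward windows and 29 H3K27me3 peaks in its window that made no call. Of the uncoupling protein genes, UCP1 had H3K4me3 at 7.51-fold, and UCP2 and UCP3 had 0 peaks of any mark. Over the 64 genes of these lists, 62 had H3K4me3, 60 had H3K79me2 and 0 had H3K27me3.

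Other gene families used in all cells gave like shares. H3K4me3 was called at 93.5% of the general members, beside 82 of 84 cytosolic ribosomal protein genes (97.6%) and 37 of 40 proteasome genes (92.5%). H3K79me2 was called at 97.4% of the general members, beside 81 ribosomal protein genes (96.4%) and 37 proteasome genes (92.5%). Counting H3K79me2 peaks with −log10 q of 5 or more, which call 12.6% of all genes, the mark stood at 31 of the 85 members (36.5%). All 31 were among the 77 general genes. It stood at 59 of the 84 ribosomal protein genes (70.2%) and 17 of the 40 proteasome genes (42.5%). The widest H3K4me3 peak had a median of 3828 bp at all members and 4023 bp at the general members. At ribosomal protein genes it was 5475 bp and at proteasome genes 4064 bp. These differences between gene families have no replicate and were not tested.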

How the data were processed

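The submitters' processing notes name Bowtie2 2.3.1, MACS2 2.1.1 and hg38, and a p threshold of 0.05 stands in the names of the peaks as deposited. Use of the input as control and the handling of duplicates were not given in the sources used here. Fold per peak is the authors' ratio over the caller's background, and the deposited −log10 p and −log10 q are the caller's own. Chromosome, start and end are the other columns used from the deposited lists. Each library has its own list, broad peaks for H3K4me3 and H3K79me2 and narrow peaks for H3K27me3.

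Gene records and starts came from RefSeq tables of GRCh38.p14, and the gene records give no strand, so calls used both ends. Covered bases were computed with python 3.11.15, pandas 2.3.3 and numpy 2.4.6, and the calculation was tested on simulated data. Motifs were exact letters. The design assumed no test, since each mark has 1 library, and depth per sample is unknown from peak lists.

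Members and lists were chosen with earlier results of these data known. Named by rule were the isoform pairs and copies, members without H3K4me3 or with H3K27me3, SDHA to SDHD, the 2 highest per complex and mark, the 2 widest and narrowest H3K4me3 and longest H3K79me2 peaks, the 5 closest to another gene's end with no overlapping record, and the exceptions and 2 highest of assembly factors and regulators. The remaining genes in the text were picked with their values in view, and the divergent starts, reach, length and CpG classes and X-linked genes were chosen then too. The values of 1 member that the rule names are not reported here. Alternatives were 3 peak thresholds, other covered shares, windows and margins, and annotated starts only.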

Additional observations from a re-analysis of the deposited data

How the results depend on the processing

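H3K4me3 at 74 members moved within 66 of 69 (annotated start only) to 76 (at least 1 bp covered). The median strongest H3K4me3 fold was 17.6 under each of the 3 peak thresholds and 16.95 with both smaller margins. The thresholds could not move this median, since they drop weak peaks only. The strongest peak of each general gene was at least 11.25-fold, with a −log10 q of at least 31.95. H3K79me2 at 78 members held at 75 at q of 0.05 or below but dropped to 31 with −log10 q of 5 or more and 10 with 5-fold or more, where the median covered share of the record, 85.5%, fell to 0%. For the 6 tissue-specific genes, H3K4me3 at 2 became 1 under each of the 3 peak thresholds, at 50% covered, in the smaller window and at annotated starts, COX7A1 being lost or without a start. H3K79me2 at 1 of them became 0 at all 3 peak thresholds, at 50% covered and at annotated starts, and 2 at 1 bp covered. H3K27me3 at 1 member became 0 under the 3 peak thresholds, 50% covered, both other windows and annotated starts, and 1 bp covered gave 12 members and 1 tissue-specific gene. Counts within 1.5 times the value reported were taken as unmoved. No paired analysis was possible because each mark has 1 library. Depth is unknown, so a weak or absent peak does not show absence of a mark.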

Other observations

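The 3 general members on chromosome X, NDUFA1, NDUFB11 and COX7B, all had H3K27me3 peaks near the gene, 7, 8 and 2 of them, against 28 of the 74 autosomal general members (37.8%). Their covered share of the window ran from 1.99% to 12.7% with a median of 10.6%, against a median of 0% on autosomes. The same held over genes at large with both active marks, where 77.9% of 289 genes on X had an H3K27me3 peak, against 53.7% of 9568 on autosomes, and the medians of the strongest H3K4me3 peak were 13.1- and 17.4-fold. The median of the 3 members was 13.6-fold, against 18.3-fold on autosomes.

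Peaks of like fold differed in −log10 q, also within a chromosome. SDHC and NDUFS5, both on chromosome 1, had H3K4me3 of 21.7-fold, with −log10 q of 111 at SDHC and 78.3 at NDUFS5. The ratio of −log10 q to fold was highest among general members at UQCRQ (5.35) and NDUFA2 (5.27) on chromosome 5, SDHC (5.14) on chromosome 1 and NDUFB9 (4.96) and COX6C (4.88) on chromosome 8, against a median of 3.54 over all 12146 H3K4me3 peaks of at least 10-fold and 2.78 over those on X. On chromosome 5 the ratio was as low as 3.71 at NDUFS6.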
